A study of Homo sapiens with 8 samples.

Results

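The genes described here are AXL, TYRO3 and MERTK, their ligand genes GAS6 and PROS1, and MET, MST1R and HGF, 8 genes in all, of which 7 are among the 14220 genes with a transcript cluster of their own on the array. They were chosen by name, as the TAM receptors and their ligands and the MET receptor family with the ligand of MET. Every array row annotated to exactly 1 of these symbols was used. That gave 7 transcript clusters of 22011, all but TYRO3, and 181 probesets of 287329. The gene-level rows that carry the symbol TYRO3 also carry other genes, so TYRO3 was read from its own probesets only.

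MDA-MB-231 is a line of human triple-negative breast cancer cells, grown in DMEM with serum. The knockdown cells stably expressed a lentiviral shRNA against the integrin α3 subunit, and the control cells a lentiviral control shRNA. Each group had 2 arrays, described by the submitters as biological replicates, and each array was summarised by gene and again by exon, giving 8 samples from 4 arrays. No rescue of α3 and no different α3 hairpin is labelled, so effects of α3 loss, of the hairpin itself and of the transduced population cannot be told apart. All values are linear PLIER intensities from Affymetrix Human Exon 1.0 ST arrays, whose small number sets the precision. The median intensity of all transcript clusters was 168 and 171 on the knockdown arrays and 177 and 186 on the control arrays.

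AXL, TYRO3 and MERTK are receptor tyrosine kinases that share an extracellular part of immunoglobulin-like and fibronectin-like domains. GAS6 and protein S, the product of PROS1, are vitamin K-dependent proteins that bind phosphatidylserine on membranes and bridge it to these receptors. GAS6 binds all the TAM receptors, while protein S acts mainly through TYRO3 and MERTK. Protein S is also an anticoagulant cofactor in plasma. MET is the receptor of hepatocyte growth factor, the product of HGF, and MST1R (RON) is its close relative. AXL and MET are both known for motility, invasion and drug tolerance in carcinoma cells, and AXL is typically abundant in mesenchymal breast cancer lines such as this.

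The target of the hairpin was checked first. ITGA3 measured 619 and 644 in knockdown cells and 3479.8 and 3529 in control cells (log2 difference -2.44 ± 0.073 SE, adjusted p = 8.05e-05, limma). Of the genes listed as present in basal breast lines, all 6 with a row were bright enough to be tested, and 4 did not pass. Among these VIM measured 4347 and 4534 in knockdown cells and 4761 and 5241 in control cells. LGALS1 fell, to 5060 and 4526 in knockdown cells against 6945 and 7018 in control cells (adjusted p = 0.0102, limma). KRT18 rose, to 5829 and 5466 in knockdown cells against 4617 and 4422 in control cells (adjusted p = 0.0366, limma). It stands on this list as present in such lines and is not a basal keratin. Of the 8 luminal markers 5 were bright enough to be tested, among them KRT8, at 4504 and 3899 in knockdown cells and 4086 and 4069 in control cells. KRT19 fell, to 2357 and 2342 in knockdown cells against 3812 and 4204 in control cells (adjusted p = 0.00359, limma). ESR1, PGR and CDH1 were under the filter on mean intensity and were not tested. CDH1, the E-cadherin gene, nevertheless differed between groups, at 177 and 168 in knockdown cells and 25.4 and 28.8 in control cells. The part of these differences in the results on the members was not tested. Also under the filter were 6 of 7 fibroblast and 4 of 6 macrophage markers with a row, including LUM (10.4 and 18.4 in knockdown cells, 8.88 and 16.9 in control cells) and PTPRC (27.2 and 25.1 in knockdown cells, 27.0 and 27.4 in control cells). The summed level of the fibroblast list was 419 and 414 in knockdown cells and 406 and 390.4 in control cells. That of the macrophage list was 1905 and 1853 in knockdown cells and 2262 and 2192 in control cells, most of it CD68. CD68 fell, to 1534 and 1450 in knockdown cells against 1871 and 1808 in control cells (adjusted p = 0.0374, limma). CD14 did not pass, and after quantile normalization or centring on array medians 0 of the macrophage list fell.

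Differences are knockdown minus control in log2(intensity + 16). They were tested with limma over all 13206 transcript clusters above the dimmest 40%, with p adjusted by the Benjamini-Hochberg method and a threshold of 0.05. Of the 6 members tested, 4 fell (PROS1, GAS6, AXL and MST1R), 0 rose, and MET and MERTK did not pass. In the same fit 21.3% of all clusters passed, 15.3% as lower and 5.99% as higher. The median difference was -0.47 over these 6 members and -0.055 over all clusters tested. As deposited 791 clusters were higher and 2016 lower, after quantile normalization 1351 were higher and 1675 lower, and with arrays centred on their medians 1496 were higher and 1507 lower.

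The promoter windows of the members that fell are printed here because these genes were lower together, and that of MET because it was not. MERTK did not pass either, and its window is not printed. Each runs 250 bases before to 50 bases after the gene start, 5′ to 3′ on the strand of the gene, from RefSeq on GRCh38.p14. The positions are chr3:93973847-93974146 (- strand) for PROS1, chr13:113864027-113864326 (- strand) for GAS6, chr19:41218973-41219272 (+ strand) for AXL, chr3:49903824-49904123 (- strand) for MST1R and chr7:116671946-116672245 (+ strand) for MET. AXL has more than 1 window in the table, and that nearest the gene start is shown. Capitals mark matches to the motifs listed after the sequences.
PROS1 promoter: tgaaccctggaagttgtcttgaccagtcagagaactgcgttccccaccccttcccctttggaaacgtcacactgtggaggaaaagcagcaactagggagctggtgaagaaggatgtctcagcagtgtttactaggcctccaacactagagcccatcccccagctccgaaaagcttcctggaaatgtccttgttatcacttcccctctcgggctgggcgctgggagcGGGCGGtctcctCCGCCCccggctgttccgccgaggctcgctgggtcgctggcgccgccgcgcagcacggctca
GAS6 promoter: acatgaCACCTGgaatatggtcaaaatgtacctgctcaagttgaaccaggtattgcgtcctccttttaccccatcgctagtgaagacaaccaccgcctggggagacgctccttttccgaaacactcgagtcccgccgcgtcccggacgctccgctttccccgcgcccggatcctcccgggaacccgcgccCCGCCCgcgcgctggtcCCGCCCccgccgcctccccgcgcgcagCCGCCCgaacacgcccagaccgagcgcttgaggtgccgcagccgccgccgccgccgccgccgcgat
AXL promoter: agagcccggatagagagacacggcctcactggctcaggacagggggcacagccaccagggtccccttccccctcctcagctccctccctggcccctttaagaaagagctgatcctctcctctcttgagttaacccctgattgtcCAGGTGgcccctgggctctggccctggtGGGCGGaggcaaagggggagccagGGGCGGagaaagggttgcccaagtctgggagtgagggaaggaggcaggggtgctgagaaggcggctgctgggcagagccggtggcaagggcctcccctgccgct
MST1R promoter: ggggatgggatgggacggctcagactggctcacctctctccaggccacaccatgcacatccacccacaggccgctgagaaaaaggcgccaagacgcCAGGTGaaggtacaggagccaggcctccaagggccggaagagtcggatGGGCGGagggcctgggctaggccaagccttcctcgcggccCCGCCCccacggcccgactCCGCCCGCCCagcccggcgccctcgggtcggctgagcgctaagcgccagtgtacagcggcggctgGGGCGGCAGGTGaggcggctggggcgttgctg
MET promoter: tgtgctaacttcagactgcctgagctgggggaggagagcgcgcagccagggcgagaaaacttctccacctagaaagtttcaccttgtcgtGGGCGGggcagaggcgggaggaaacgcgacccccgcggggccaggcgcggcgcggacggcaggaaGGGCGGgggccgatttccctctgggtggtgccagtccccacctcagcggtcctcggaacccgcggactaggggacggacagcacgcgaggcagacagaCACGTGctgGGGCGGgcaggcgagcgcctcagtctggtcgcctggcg

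The motifs searched, on both strands, were GGGCGG (the GC box bound by Sp1), TGANTCA (AP-1), GGAATG (TEAD), CAGGTG (an E-box bound by Snail and ZEB factors) and ACGTG (the core of the hypoxia response element). Positions count back from -1 at the base before the start site and refer to the leftmost letter. The GC box stood at -24 and -12 in PROS1, at -60, -43 and -16 in GAS6, at -78 and -54 in AXL, 5 times in MST1R and 3 times in MET. It was found in 45% of the 35116 promoter windows of this length in the table. The E-box CAGGTG was found at -106 in AXL, at -244 in GAS6 and at -154 and 25 in MST1R, but not in the PROS1 or MET window, and 20.6% of all windows hold it. In MST1R the GC boxes at -47 and -43 overlap, and the last GC box lies directly before the last E-box. MET alone of these held ACGTG, as a single CACGTG read on both strands at 4 and 5, against 21.4% of all windows. AP-1 letters (7.71% of all windows) and TEAD letters (14% of all windows) were in none of these 5 windows. The MERTK window, not printed, held the GC box 5 times and none of the other motifs. Such matches describe the letters of a window and were not tested against the expression values.

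Among the ligands, PROS1 (transcript cluster 2685304) moved most. It measured 300.2 and 272 in knockdown cells and 1105 and 1031 in control cells. Both knockdown arrays lay far below both control arrays, with means of 286 ± 19.7 in knockdown cells and 1068 ± 52.2 in control cells (SD, n = 2 each). The log2 difference was -1.84 ± 0.092 (SE), or 3.59-fold lower in knockdown cells on the offset scale (adjusted p = 0.000314, limma). In bulk RNA such as this, fewer cells expressing a gene and less RNA per cell cannot be told apart. A pseudogene closely similar to PROS1, PROS2P, is annotated in RefSeq, and whether the probes also read it was not tested.

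GAS6 (transcript cluster 3502829), the ligand of AXL, fell too. It measured 1209.7 and 1211 in knockdown cells and 1976 and 2169.6 in control cells. The knockdown arrays were nearly equal and both below the controls, whose own spread was wider, with means of 1210.3 ± 0.912 in knockdown cells and 2073 ± 137 in control cells (SD, n = 2 each). The log2 difference was -0.77 ± 0.080 (SE), 1.70-fold lower in knockdown cells on the offset scale (adjusted p = 0.00339, limma).

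HGF, the MET ligand, was dim. Its transcript cluster (3058944) measured 53.8 and 45.2 in knockdown cells and 65.0 and 40.6 in control cells, so the groups overlapped. It ranked at percentile 24.9 of all clusters by mean intensity, under the filter, and was not tested in the main comparison. Fitted without the filter its log2 difference was -0.052 with a 95% interval of -0.60 to 0.49, which leaves changes of either sign possible. The array carried only 2 probesets annotated to HGF alone. Probeset 3058947 measured 91.1 and 77.2 in knockdown cells and 121 and 68.4 in control cells, and probeset 3058946 measured 17.1 and 13.9 in knockdown cells and 10.3 and 15.8 in control cells. Both overlapped between groups. MST1, the gene of the MST1R ligand, had no gene-level row annotated to it alone.

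Among the receptors, AXL (transcript cluster 3834046) fell. It measured 2914 and 2908 in knockdown cells and 4130.3 and 4217 in control cells. The groups were well apart, with means of 2911 ± 4.50 in knockdown cells and 4174 ± 61.5 in control cells (SD, n = 2 each), and the log2 difference was -0.52 ± 0.072 (SE), 1.43-fold lower (adjusted p = 0.00692, limma). By mean intensity over the 4 arrays AXL ranked at percentile 97.1 of all clusters.

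MERTK (transcript cluster 2500550), the TAM receptor best known from macrophages and the retinal pigment epithelium, did not pass. It measured 572 and 588 in knockdown cells and 528 and 551 in control cells. Both knockdown arrays were slightly above both control arrays, but the log2 difference was 0.10 with a 95% interval of -0.095 to 0.30 (adjusted p = 0.425, limma). That interval lies above the interval of AXL, which ran from -0.69 to -0.34. The difference between the 2 receptors was not itself tested.

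MET (transcript cluster 3020343) did not pass either. It measured 1577 and 1428 in knockdown cells and 1331 and 1333 in control cells. The knockdown arrays were higher, and they differed more from each other (SD 106) than the controls did (SD 1.34). The log2 difference was 0.17 with a 95% interval of -0.028 to 0.37 (adjusted p = 0.193, limma), so a fall of the size seen for AXL lies outside it.

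MST1R (transcript cluster 2674919), the RON receptor, fell near the limit of the test. It measured 138 and 136 in knockdown cells and 192 and 187 in control cells, close to the dim end of the features tested (percentile 48.2 of all clusters). The groups did not overlap, and the log2 difference was -0.43 ± 0.106 (SE), 1.34-fold lower on the offset scale (adjusted p = 0.0364, limma). Leaving out any single array ended the call, at an adjusted p of 0.164 without knockdown replicate 1, 0.199 without knockdown replicate 2, 0.0851 without control replicate 1 and 0.0724 without control replicate 2. It was also lost after quantile normalization (0.0679), after centring (0.0719) and without the filter (0.0588). The calls of PROS1, GAS6 and AXL held in all 13 alternative fits, with the highest adjusted p at 0.00508, 0.0168 and 0.0429.

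**Figure D1:**
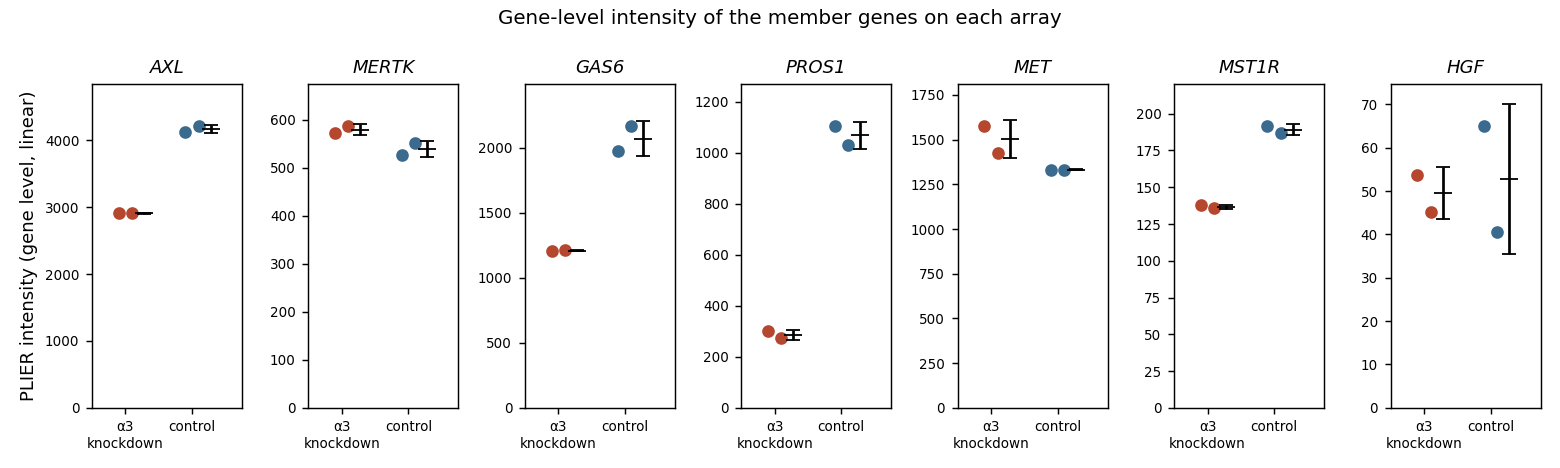
Gene-level PLIER intensity (linear axis from 0, a separate scale for each gene) on every array, with knockdown on the left and control on the right of each panel. Points are arrays and the bars beside them are mean ± SD (n = 2). PROS1, GAS6, AXL and MST1R sit lower on both knockdown arrays, while HGF overlaps between groups.

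**Figure D2:**
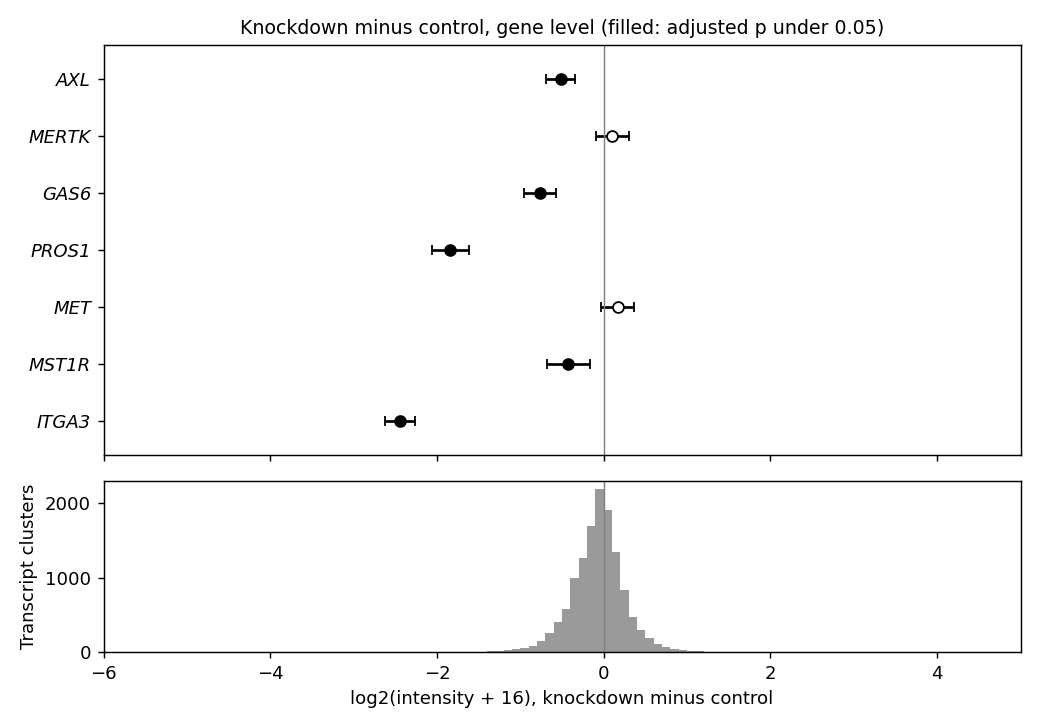
The upper panel gives the gene-level log2 difference, knockdown minus control, with its 95% interval from limma, for the members tested and for ITGA3, the target of the hairpin. Filled points have an adjusted p under 0.05. The lower panel is the histogram of the same difference over all 13206 clusters tested, whose median is -0.055.

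The probesets read the same arrays in smaller pieces. Of the 181 member probesets, 154 were bright enough to be tested in the exon-level fit, and 46 of these fell while 0 rose. Over all 172397 probesets tested 4.58% passed, 3.25% as lower and 1.33% as higher. The 46 were 18 of 30 in AXL, 13 of 19 in GAS6 and 15 of 16 tested in PROS1. The called PROS1 probesets 2685306, 2685310, 2685321 and 2685323 had knockdown means of 77.4 to 93.4, among the levels of probesets left out as dim. They passed the filter through their control arrays, with means of 243 to 398. By limma 0 passed in TYRO3, MERTK, MET or MST1R, where at an unadjusted p under 0.05 there were 3 of 11, 2 of 23, 3 of 35 and 6 of 20 tested, against 21% of all probesets. Probesets of a gene share its RNA and are not replicates. The count of 46 went down to 28 without knockdown replicate 2, 25 without control replicate 1 and 24 without control replicate 2. It was 15 without the intensity trend and 1 without the filter on dim probesets.

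In PROS1 the fall was seen along nearly the whole set of probesets. The median difference over its 16 tested probesets was -1.81. The brightest, probeset 2685316, measured 934 and 736 in knockdown cells and 3198 and 3262 in control cells (log2 difference -1.94, adjusted p = 0.000301, limma). The most negative was probeset 2685322, at 131 and 111 in knockdown cells and 670.2 and 493 in control cells (-2.11, adjusted p = 0.00238, limma). Probeset 2685338 stood apart from the rest. It measured 394 and 331 in knockdown cells and 548 and 593 in control cells, a log2 difference of -0.64 that did not pass (adjusted p = 0.0856, limma).

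In AXL the probeset differences ran from -0.96 to 0.12, with a median of -0.56. Of the 30 differences, 29 were below 0, against 56.3% of all probesets tested. The most negative was probeset 3834059, at 236 and 263 in knockdown cells and 475 and 524 in control cells (-0.96, adjusted p = 0.0283, limma). The only positive difference was that of the low-intensity probeset 3834047, at 229 and 176 in knockdown cells and 218 and 155 in control cells (0.12, adjusted p = 0.846, limma). Probeset 3834087, chosen after its values were seen, was bright and nearly equal between groups. It measured 8091 and 7635 in knockdown cells and 8243 and 7787 in control cells (-0.03, adjusted p = 0.908, limma).

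GAS6 had a median of -0.81 over 19 probesets, 18 of them below 0, against 56.3% of all probesets tested. The most negative was probeset 3502868, at 545 and 584 in knockdown cells and 964 and 1261 in control cells (-0.95, adjusted p = 0.0214, limma). The exception was probeset 3502838, at 933 and 624 in knockdown cells and 741 and 687 in control cells, where the groups overlapped (0.10, adjusted p = 0.839, limma).

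TYRO3, read only here, had 11 of 19 probesets bright enough to be tested. All 11 differences were below 0, with a median of -0.36, against 56.3% below 0 over all probesets tested, but none passed. The most negative was probeset 3590530, at 137 and 191 in knockdown cells and 265 and 289 in control cells (-0.72, adjusted p = 0.127, limma). The least negative was probeset 3590526, at 107 and 110.1 in knockdown cells and 93.9 and 131 in control cells (-0.03, adjusted p = 0.971, limma). The knockdown values of the first lay below both controls, and those of the second lay between them.

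MET had the opposite sign at most probesets. Of 35 tested, 32 were above 0, against 43.7% of all probesets tested, and the median was 0.18. None passed. The most positive was the low-intensity probeset 3020407, at 150.0 and 222 in knockdown cells and 74.6 and 110.1 in control cells (0.90, adjusted p = 0.129, limma). The most negative was probeset 3020406, at 303 and 220.3 in knockdown cells and 278 and 309 in control cells (-0.17, adjusted p = 0.727, limma).

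Against 43.7% of all probesets tested, MERTK had 15 of 23 tested probesets above 0 and a median of 0.064. They ran from -0.15 at probeset 2500551 (214 and 154 in knockdown cells, 167 and 249 in control cells) to 0.52 at probeset 2500588 (161 and 296 in knockdown cells, 106 and 205 in control cells). Both overlapped between groups and had an adjusted p of 0.806 and 0.464 in limma.

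In MST1R 19 of 20 tested probesets were below 0, against 56.3% of all probesets tested. The median was -0.38, and none of the 20 passed. The most negative was probeset 2674955, at 90.1 and 105 in knockdown cells and 215 and 178 in control cells (-0.90, adjusted p = 0.0854, limma). Probeset 2674959 went the other way, at 175 and 137 in knockdown cells and 115 and 113 in control cells (0.39, adjusted p = 0.436, limma).

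**Figure D3:**
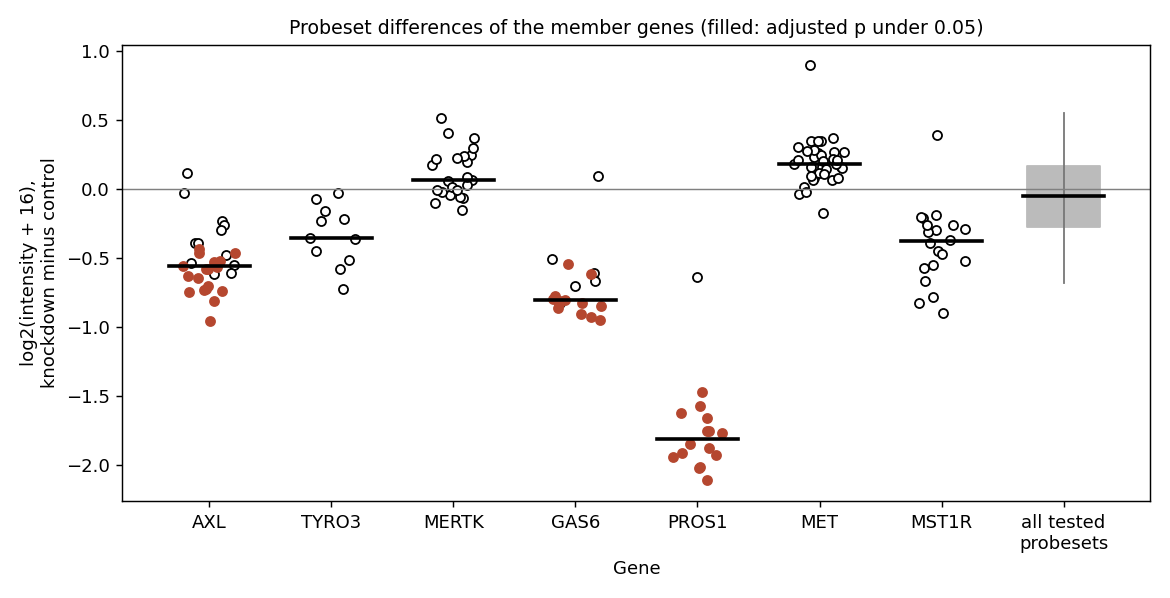
Each point is a tested probeset of a member gene, and the vertical axis is its log2 difference, knockdown minus control. Filled points have an adjusted p under 0.05 and horizontal bars are medians. The last column shows all tested probesets by their median (bar), interquartile range (box) and 5th to 95th percentiles (line). PROS1 lies lowest, with its probeset at -0.64 apart from the others.

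Whether a probeset moved differently from its gene was tested by subtracting, on each array, the mean of the other tested probesets of the gene. Of 154 member probesets 0 passed in limma, and 22 of 155391 probesets passed in all (0.0142%, with 0.00837% higher and 0.00579% lower than their gene). At an unadjusted p under 0.05 there were 9 member probesets (5.84%), against 6.27% of all probesets. The largest of these was PROS1 probeset 2685338, whose difference was above that of the rest of the gene by 1.18 ± 0.174 (SE, log2; unadjusted p = 0.000357, adjusted p = 0.270, limma). The next by p was MST1R probeset 2674959, at 0.84 ± 0.161 (SE, adjusted p = 0.417, limma). AXL probeset 3834087 differed from its gene by 0.51 ± 0.153 (SE, adjusted p = 0.653, limma).

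**Figure D4:**
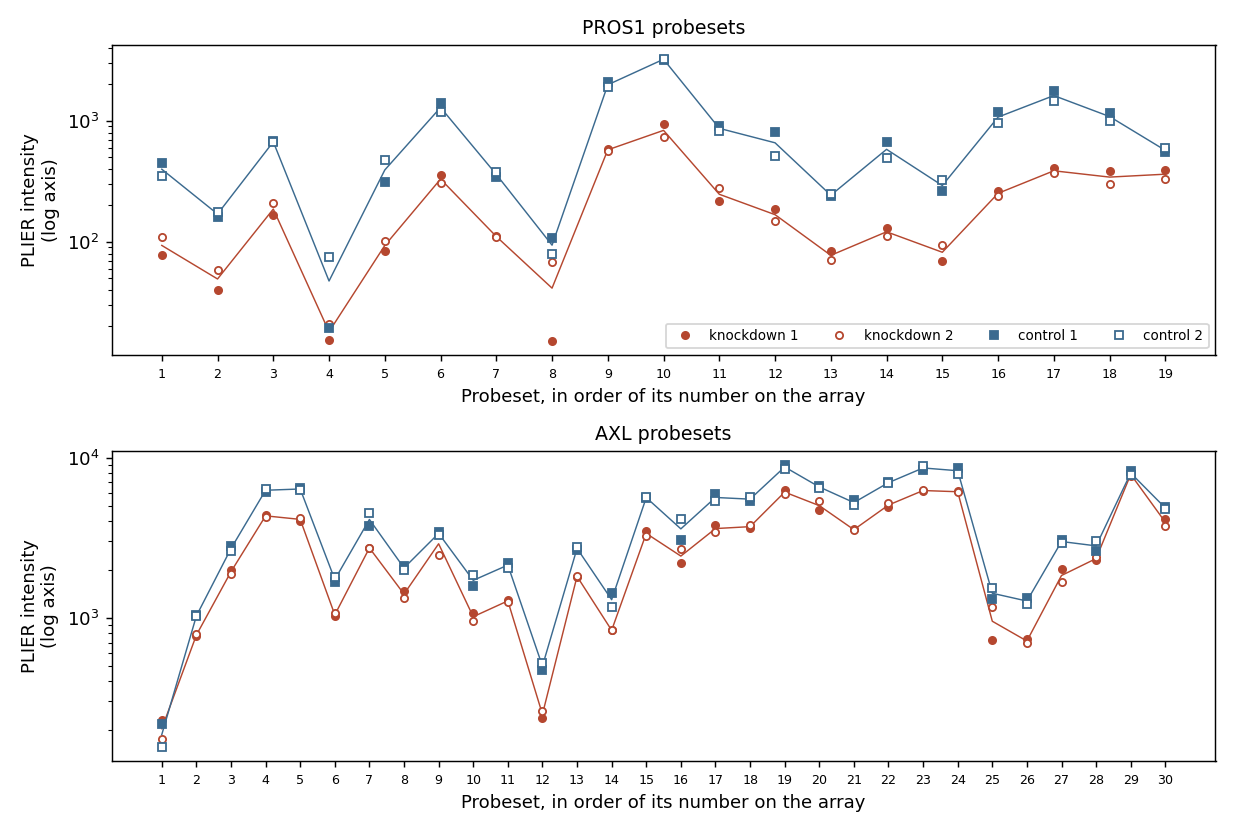
PLIER intensity (log axis) of every PROS1 probeset (upper) and AXL probeset (lower) on each array, in the order of the probeset numbers, with no genome position implied. Lines join group means. The groups lie well apart along most of PROS1 and draw together at its last probeset (394 and 331 in knockdown cells, 548 and 593 in control cells). In AXL they meet at the first probeset and at probeset 29.

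The rest of the pathway was read from lists of genes with a transcript cluster of their own, in the same fit. Each count below stands against 21.3% of all clusters that passed, 15.3% as lower and 5.99% as higher. The list for activation of the ligands or receptors held proteases, protease inhibitors and MST1. Of 11 listed, 7 were tested, and 3 fell while 0 rose (median -0.054, which was above 0 under both other scalings). PLAU, the urokinase protease that can activate pro-HGF, averaged 2062 ± 8.55 in knockdown cells and 3364 ± 55.5 in control cells (SD, n = 2 each; log2 difference -0.70, adjusted p = 0.00316, limma). SPINT2, an inhibitor of the HGF-activating proteases, averaged 1943 ± 83.7 in knockdown cells and 2673 ± 218 in control cells (-0.46, adjusted p = 0.0174, limma). FURIN, which cleaves the MET precursor, averaged 123 ± 16.8 in knockdown cells and 203 ± 23.5 in control cells (-0.65, adjusted p = 0.0241, limma). The SPINT2 call was lost without knockdown replicate 1 (0.0542) or 2 (0.0998). That of FURIN was lost without knockdown replicate 1 (0.120), knockdown replicate 2 (0.0530), control replicate 2 (0.0783) or the filter (0.0539).

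Genes for ligand carboxylation and for exposing or binding phosphatidylserine did not pass this test. Of 16 listed, 10 were tested, 0 passed and 2 had an unadjusted p under 0.05 (median 0.095), against 35.8% of all clusters. Scaling mattered here, with 1 higher after quantile normalization and 4 higher after centring, and 0 lower under either.

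Among adaptors and effectors of receptor signalling, 22 of 33 listed were tested, 3 rose, 5 fell and 14 did not pass (median -0.076). The kinase gene AKT2 averaged 459 ± 5.50 in knockdown cells and 766 ± 3.62 in control cells (SD, n = 2 each; -0.72, adjusted p = 0.00377, limma). TNS2, a tensin described as a binding partner of AXL, averaged 258 ± 11.3 in knockdown cells and 453 ± 26.7 in control cells (-0.78, adjusted p = 0.00496, limma). HRAS, a small GTPase gene, averaged 852 ± 1.67 in knockdown cells and 1264 ± 66.8 in control cells (-0.56, adjusted p = 0.00701, limma). The falls numbered 3 after centring, where the median was 0.015.

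Of genes for receptor downregulation and shedding, 9 of 16 listed were tested, 2 rose, 1 fell and 6 did not pass (median -0.0067, and above 0 under both other scalings). The shedding proteases listed, ADAM10 and ADAM17, had no gene-level row annotated to them alone, so shedding was not read here. LRIG1, which promotes degradation of MET and of ErbB receptors, averaged 70.0 ± 2.57 in knockdown cells and 264 ± 6.85 in control cells (SD, n = 2 each; -1.70, adjusted p = 0.00097, limma). Its knockdown level lay among those of clusters left out as dim, and the difference ran from -1.90 with an offset of 1 to -1.29 with an offset of 64. The phosphatase genes PTPRF, at 801 ± 24.1 in knockdown cells and 566 ± 30.9 in control cells (0.49, adjusted p = 0.0124, limma), and PTPN1, whose product dephosphorylates MET, at 1955 ± 27.8 in knockdown cells and 1536 ± 27.3 in control cells (0.34, adjusted p = 0.0217, limma), rose. Both calls were lost without knockdown replicate 1 (0.0625 and 0.127) or 2 (0.0972 and 0.119).

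Of the described surface partners of MET, 14 of 18 listed were tested, 2 rose, 4 fell and 8 did not pass (median -0.16). NRP1, a co-receptor for semaphorins and VEGF, averaged 659 ± 18.8 in knockdown cells and 1214 ± 37.2 in control cells (SD, n = 2 each; -0.87, adjusted p = 0.00218, limma). ICAM1, an adhesion molecule described as a MET co-receptor, averaged 805 ± 43.3 in knockdown cells and 422 ± 7.80 in control cells (0.90, adjusted p = 0.00251, limma), and EGFR, the receptor of epidermal growth factor, 1391 ± 52.4 in knockdown cells and 876 ± 29.4 in control cells (0.66, adjusted p = 0.00449, limma). Under either other scaling 3 of the list fell.

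Of transcription regulators described for AXL or MET, 17 of 20 listed were tested, 0 rose, 4 fell and 13 did not pass (median -0.21). Over all clusters tested 15.3% fell and 5.99% rose. SNAI2, the Slug repressor, averaged 515 ± 37.9 in knockdown cells and 1079 ± 20.4 in control cells (SD, n = 2 each; -1.04, adjusted p = 0.00178, limma). EPAS1, which encodes HIF-2α, averaged 711 ± 7.71 in knockdown cells and 1012 ± 65.5 in control cells (-0.50, adjusted p = 0.0112, limma), and the AP-1 gene JUN 1052 ± 53.5 in knockdown cells and 1426 ± 7.99 in control cells (-0.43, adjusted p = 0.0138, limma). The EPAS1 and JUN calls were lost without knockdown replicate 1 (0.0586 and 0.0912) or 2 (0.0727 and 0.0581). The fourth was YAP1, and after centring 3 fell.

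Other receptor tyrosine kinases moved in both directions. Of 50 listed 46 had a row, 25 of these were dim, and in the other 21 there were 2 that rose and 5 that fell (median -0.099). The falls numbered 3 under either other scaling. The Eph receptor gene EPHA4 averaged 56.2 ± 0.063 in knockdown cells and 403 ± 9.09 in control cells (SD, n = 2 each; -2.54, adjusted p = 0.000195, limma), and PDGFRB, whose product binds PDGF, averaged 266 ± 6.43 in knockdown cells and 77.0 ± 4.21 in control cells (1.60, adjusted p = 0.00111, limma). The knockdown level of EPHA4 and the control level of PDGFRB lay among those of clusters left out as dim, so each passed the filter through its brighter group. With offsets of 1 and 64 the difference was -2.82 and -1.96 for EPHA4 and 1.78 and 1.23 for PDGFRB. EGFR is also in this list.

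Genes with the most similar pattern were sought for each member that passed, as the smallest Euclidean distance of the log2 values over the 4 arrays, each gene minus its own mean, among 9228 other genes. For AXL these were NCOA1, PIH1D1 and AP1G2 (distances 0.0157 to 0.0207). For GAS6 they were KRT19, CLSTN3 and MSLN (0.00881 to 0.0242), and for MST1R they were GDAP2, EGR1 and TSHZ1 (0.0108 to 0.0171). PROS1 had no neighbour as close, with SSBP2, CCN3 and STK26 at 0.115 to 0.182. SSBP2 measured 79.0 and 74.4 in knockdown cells and 299.9 and 305 in control cells. Its knockdown level lay among those of clusters left out as dim, so it was a candidate through its control arrays. The distances rest on the same 4 arrays for every gene and depend on the size of the group difference.

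**Figure D5:**
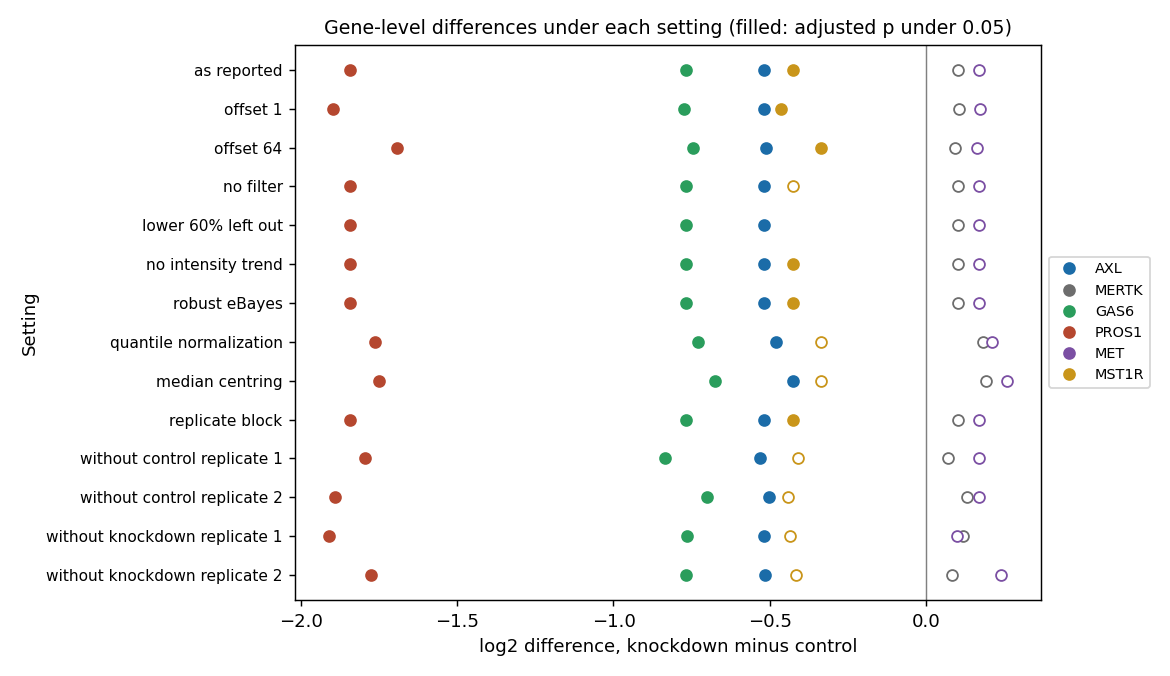
Gene-level log2 difference of each tested member, knockdown minus control, as reported and under 13 alternative settings, with filled points at an adjusted p under 0.05. The points of PROS1, GAS6 and AXL are filled in every row, those of MET and MERTK in none, and those of MST1R in some. MST1R has no point where the lower 60% of clusters were left out.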

How the data were processed

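The authors deposited PLIER intensity values, linear and not on a log scale, for core transcript clusters and core probesets. The labels credit Expression Console, and the series design text credits the Exon Array Computational Tool. How arrays were normalized, and the versions and build used, is not given in these sources. Features took their names from the platform annotation, with symbols updated through NCBI RefSeq (GRCh38.p14). Of the transcript clusters 14432 had 1 symbol, 2408 several and 5171 none, and of the probesets 261273, 9155 and 16901. A gene with several clusters is represented by the brightest.

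Titles gave the group and replicate number. The authors' normalization was kept, 16 was added before log2, and features in the lower 40% by their mean over all 4 arrays were dropped as dim. Groups were fitted with limma 3.58.1 (R 4.3.3; two-sided, no covariate, eBayes trend on mean intensity), and p-values were adjusted over all features by the Benjamini-Hochberg method. Each probeset was also tested against the mean of the others of its gene, in genes with at least 3 tested probesets, without the trend. The gene-level, exon-level and probeset-against-gene fits were also run on simulated arrays with independent noise. The filter, the nearest patterns and the motif search were not simulated. Alternatives were other offsets, filters, variance models, scalings, a replicate block, leaving out each array, and the median of the other probesets.

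The members and lists were chosen with earlier results of these data known. The text names the members, ITGA3, up to 3 called genes with the smallest p per pathway list, the 3 nearest patterns per called member, and the extreme tested probesets per member. Markers, YAP1, MST1, ADAM10, ADAM17, PROS1 probeset 2685316 and the called PROS1 probesets that passed the filter through their control arrays were named beside them. Python 3.11.15 with pandas 2.3.3 joined the tables, and matplotlib 3.10.9 drew the plots.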

Additional observations from a re-analysis of the deposited data

How the results depend on the processing

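With 4 arrays the fits have few residual degrees of freedom, and where an array is left out the remaining array is taken to vary as the other group's arrays do. At the gene level the differences of AXL, GAS6, PROS1, MERTK and MET kept their sign and their side of the threshold in all 13 alternatives. AXL ranged from -0.53 to -0.43, GAS6 from -0.83 to -0.68, PROS1 from -1.91 to -1.69, MERTK from 0.071 to 0.19 and MET from 0.099 to 0.26. MST1R kept its sign in the 12 alternatives that tested it but did not pass after quantile normalization (-0.34), after centring (-0.33) or without the filter (-0.43), nor without any 1 array (-0.44 to -0.41). The number of members passing was 3 or 4 throughout. At the exon level 46 member probesets passed, against 15 without the intensity trend, 1 without the filter and 24 to 35 without 1 array. The cause was not tested. In the fit without the filter 163 of all 287329 probesets passed. The other settings gave 33 (centring) to 65 (replicate block).

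The replicate numbers are shared between groups, but no label ties them to a batch. Deviations of same-numbered arrays from their group means correlated at 0.29 by gene and 0.30 by probeset, over 2 pairs. With the replicate block the member differences were unchanged in size and 4 members passed. So did 65 member probesets, 64 as lower and 1 as higher. Calls over all features went to 4062 clusters against 2807 without the block and 28957 probesets against 7891.

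Other counts over all features that moved by more than 1.5 times were 1084 and 798 clusters without knockdown replicate 1 and 2. At the exon level they were 1693 probesets without the trend, 3009 and 4413 without control replicate 1 and 2, and 5254 and 3343 without knockdown replicate 1 and 2. Probesets called against their gene were 22, against 0 to 38 under the alternatives, with 0 member probesets in each. The median difference over a gene's probesets kept the sign of the gene-level value in AXL (-0.56), MERTK (0.064), MST1R (-0.38), GAS6, PROS1 and MET. No array group is large enough for a test of single outlying arrays.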
